A study of Rattus norvegicus with 8 samples.

Results

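Lysyl oxidases and lysyl hydroxylases, the enzymes that crosslink collagen and elastin and that prepare collagen for crosslinking, were examined in outflow veins of rat arteriovenous fistulas (AVFs). The 8 genes were chosen by name, 5 oxidases (Lox, Loxl1, Loxl2, Loxl3 and Loxl4) and 3 hydroxylases (Plod1, Plod2 and Plod3), out of 32623 rat Ensembl genes with deposited counts. All 8 passed the filter on low counts and were tested. Each animal was a Sprague Dawley rat in which the epigastric vein was joined to the femoral artery and wrapped at surgery with a bilayer nanofiber scaffold of PLA and PLGA, 2 biodegradable polyesters. In the BAPN group (n = 4, 3 females and 1 male) the inner PLGA layer was loaded with β-aminopropionitrile. In the vehicle group (n = 4, 2 females and 2 males) the scaffold held no drug. Veins of both groups were taken on day 21, so every library carries the fistula and a scaffold, and no vein without them was analysed here. The ages of the rats are not given in the sources used here.

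Lysyl oxidases are secreted, copper-dependent amine oxidases. They convert lysine and hydroxylysine residues of collagen and elastin to reactive aldehydes, which then form covalent crosslinks between molecules. BAPN blocks this step by binding at the active site, and therefore acts on the proteins rather than on the transcripts measured here. Lysyl hydroxylases work earlier, inside the endoplasmic reticulum, where they hydroxylate collagen lysines. Whether the lysines of the telopeptides, the short ends of the collagen molecule, are hydroxylated decides which type of crosslink forms. In the vein wall these enzymes are made mainly by fibroblasts, myofibroblasts and smooth muscle cells.

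The reads counted per library ranged from 45039451 to 52241007 with BAPN and from 19548203 to 22442050 with vehicle, so depth separated the groups completely. Any effect of depth or library handling cannot be told apart from that of the drug. Levels are reads per 1000000 counted reads (CPM) after TMM scaling, a method that corrects for library composition. They are given as mean ± SD over the 4 animals of a group. Fold changes are of BAPN against vehicle on the log2 scale and come from edgeR's quasi-likelihood test, with a false discovery rate (FDR) by Benjamini-Hochberg adjustment over 11682 tested genes. Standard errors (SE) and 95% intervals come from limma-voom. Its own estimates differ from those of edgeR (for Plod2 0.87 against 0.73), so the intervals are not centered on the fold changes given. Across all tested genes 876 (7.5%) were called higher and 1081 (9.25%) lower at an FDR below 0.05, and with total counts in place of TMM the split was 508 higher and 1160 lower. Cell type markers were also checked. Smooth muscle, fibroblast and endothelial transcripts were present in every library. So were those of 9 of the 10 macrophage markers, and the other, Marco, was at 0 in all of them. Smooth muscle markers were called lower in 5 of 10 and fibroblast markers in 1 of 10. Endothelial markers were called lower in 3 of 9 tested. Of the macrophage markers 0 of 9 were called. T cell markers were called higher in 2 of 8 and B and plasma cell markers in 2 of 4. Adipocyte markers were called lower in 1 of 6. None of the tested skeletal muscle (2), keratinocyte (2) and bone and cartilage (3) markers was called.

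The promoters of Loxl1 and Plod2 are shown first because these genes gave, in turn, the clearest separation of the animals and the largest increase in the fitted level among the 8. Both are from RefSeq (rat assembly GRCr8) and run 5′ to 3′ on the strand of the gene, from 250 bases before to 50 bases after its start. Loxl1 lies on the minus strand at chr8:67612175-67612474 and Plod2 on the plus strand at chr8:101964068-101964367. Capitals mark ACGTG on either strand, a form of the core letters of the element that hypoxia-inducible factors bind. The other form, GCGTG, was not marked or counted.
Loxl1: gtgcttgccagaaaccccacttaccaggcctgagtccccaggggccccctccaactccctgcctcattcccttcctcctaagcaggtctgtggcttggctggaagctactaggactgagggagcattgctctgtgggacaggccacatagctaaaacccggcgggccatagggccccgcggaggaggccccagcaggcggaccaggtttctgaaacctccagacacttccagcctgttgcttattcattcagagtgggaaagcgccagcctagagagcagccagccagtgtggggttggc
Plod2: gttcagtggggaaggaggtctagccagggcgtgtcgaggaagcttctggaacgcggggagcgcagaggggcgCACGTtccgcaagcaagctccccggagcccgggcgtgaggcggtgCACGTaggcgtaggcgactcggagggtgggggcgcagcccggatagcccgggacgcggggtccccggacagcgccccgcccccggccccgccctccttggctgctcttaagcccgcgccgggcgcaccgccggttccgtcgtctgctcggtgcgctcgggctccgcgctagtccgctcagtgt
The Plod2 window held ACGTG at 2 places, both on the minus strand, beginning 178 and 133 bases before the start. Of 33469 rat promoter windows of this length, 19.3% held these letters at least once and 7.62% at least 2 times. None of the other 5 windows with a sequence (Loxl1, Loxl3, Loxl4, Plod1 and Plod3) held ACGTG. This does not cover GCGTG. The Plod2 window was also rich in CpG, with 40 CpG dinucleotides and 73.7% G and C, against 6 and 61% in that of Loxl1 and medians of 7 and 51.7% over all windows. Lox and Loxl2 had no window in the table used.

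No member passed the threshold in edgeR. At an FDR below 0.05, 0 of 8 were called, whereas 16.8% of all tested genes were. At an unadjusted p below 0.05 there were 2 of 8 (Loxl1 and Loxl2), against 35.8% of all tested genes. All 5 oxidases had fitted log2 fold changes below 0 and the hydroxylases lay on both sides of it. The median over the 8 genes was -0.33, against 0.02 over all tested genes, of which 48.4% had fold changes below 0. DESeq2 on the same genes called 2 of 8 members, Loxl1 and Loxl2, both lower, against 27.4% of all tested genes called in either direction and 15.1% called lower. With total counts only 1 member was called, against 14.3% of all tested genes, and without Vehicle 2 there were 2, against 19%.

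**Figure D1:**
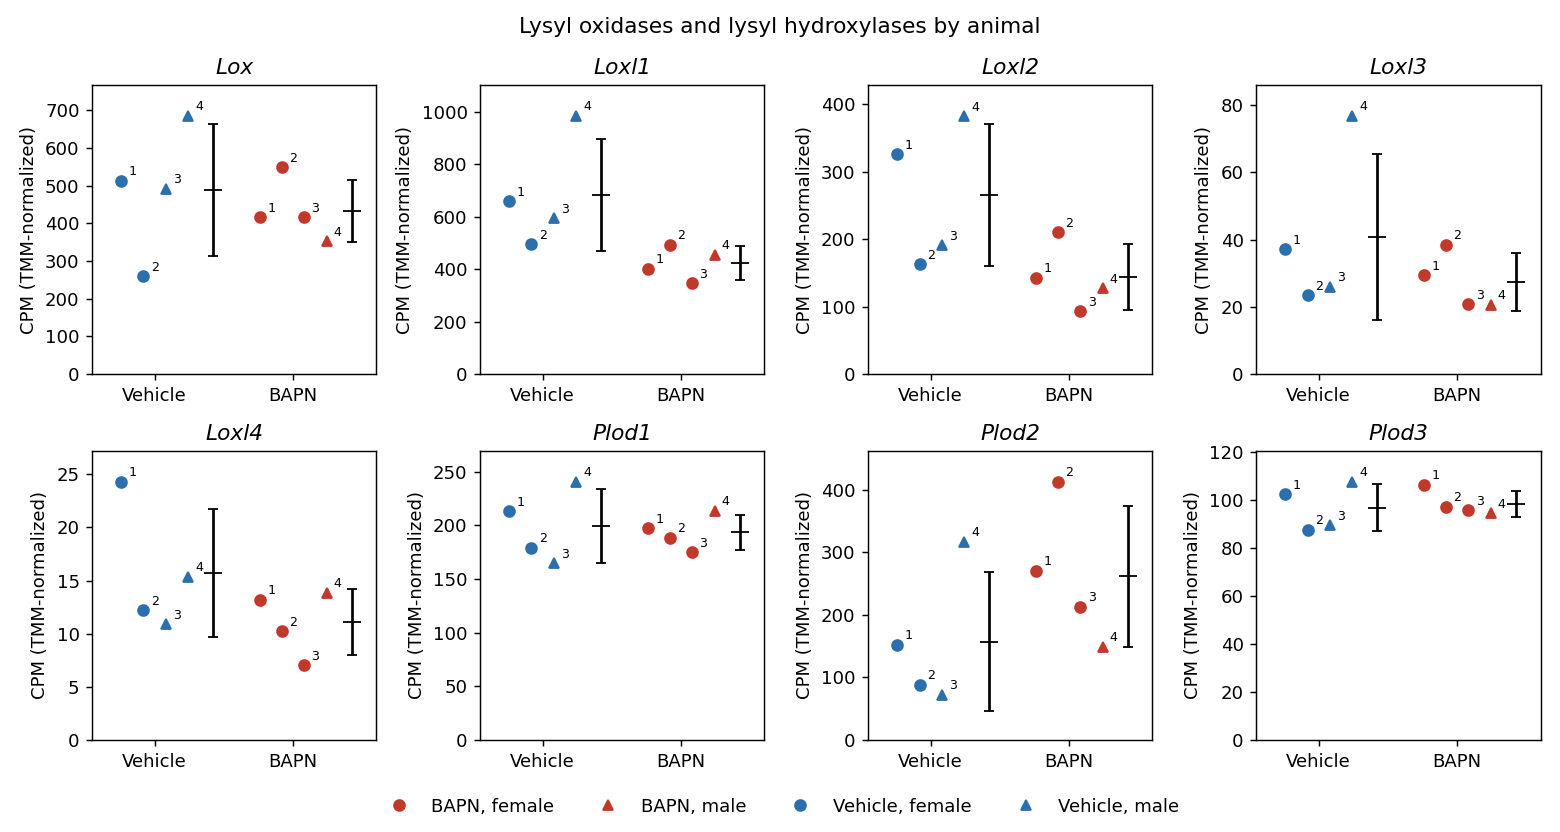
Normalized expression (CPM, vertical axes from 0) of the 8 genes in each animal, numbered by replicate. Circles are females and triangles males, and bars give mean ± SD (n = 4). Only for Loxl1 do all BAPN animals lie below all vehicle animals, with BAPN 2 (494) and Vehicle 2 (495) almost level.

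Lox (ENSRNOG00000014426) encodes the founding member of the family, which acts on fibrillar collagens and elastin. Its level was 417, 549, 416 and 353 CPM across BAPN 1 to 4 and 514, 259, 493 and 685 CPM across Vehicle 1 to 4. The 4 BAPN animals fell inside the range of the vehicle group, which held both the lowest and the highest animal of the study. The mean was 434 ± 82.5 CPM in the BAPN group, against 488 ± 175 CPM. The log2 fold change was -0.17 (SE 0.29, FDR 0.678), and the 95% interval of the difference ran from -0.76 to 0.55. An exact two-sided permutation test over the animals gave p = 0.771. The sign turned among females alone (0.25) and without Vehicle 4 (0.04).

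Loxl1 (ENSRNOG00000008680), whose product is best known for the upkeep of elastic fibers, was the member with no overlap between the groups. It was at 402, 494, 346.6 and 456 CPM across BAPN 1 to 4 and at 659, 495, 594 and 985 CPM across Vehicle 1 to 4. Every BAPN animal was below every vehicle animal, although BAPN 2 and Vehicle 2 nearly met. Of all tested genes, 11.9% were lower without overlap. The means were 424 ± 64.1 and 683 ± 212 CPM. The log2 fold change was -0.69 (SE 0.22, FDR 0.0623), with a 95% interval of -1.15 to -0.16. The exact two-sided permutation p was 0.0286, the smallest that 4 animals against 4 can give. DESeq2 gave -0.70 with an FDR of 0.0131. In edgeR Loxl1 was called without Vehicle 2 (FDR 0.0351) and with total counts only (FDR 0.0452). Without Vehicle 4 the fold change was -0.46 (FDR 0.113).

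Loxl2 (ENSRNOG00000016758) encodes an oxidase with scavenger receptor domains that crosslinks type IV collagen of basement membranes. It had the lowest fold change of the 8 genes. BAPN 1 to 4 were at 143, 211, 93.7 and 128 CPM and Vehicle 1 to 4 at 326, 163, 192 and 383 CPM. The groups overlapped through BAPN 2, which was above Vehicle 2 and Vehicle 3. The means were 144 ± 49.2 and 266 ± 106 CPM, a log2 fold change of -0.89 (SE 0.32, FDR 0.0817) with a 95% interval of -1.59 to -0.15. The exact two-sided permutation p was 0.0857. Loxl2 was called by DESeq2 (-0.90, FDR 0.026) and by edgeR without Vehicle 2 (-1.06, FDR 0.0443). Of all tested genes, 7.44% had a fold change at or below that of Loxl2, and 11.6% at or below that of Loxl1.

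Loxl3 (ENSRNOG00000061373) and Loxl4 (ENSRNOG00000015727) encode the other oxidases with scavenger receptor domains. Loxl3 was at 29.5, 38.5, 20.7 and 20.6 CPM across BAPN 1 to 4 and at 37.1, 23.4, 26.0 and 76.8 CPM across Vehicle 1 to 4. Vehicle 4 stood far above the rest, and the other 7 animals were mixed. The log2 fold change of Loxl3 was -0.58 (SE 0.36, FDR 0.295, 95% interval -1.25 to 0.35), and without Vehicle 4 it was -0.08. Loxl4 was at 13.2, 10.2, 7.05 and 13.9 CPM with BAPN and at 24.3, 12.2, 10.9 and 15.4 CPM with vehicle. Its highest animal was Vehicle 1, and the groups overlapped. The log2 fold change of Loxl4 was -0.50 (SE 0.29, FDR 0.251, 95% interval -1.12 to 0.20), and without Vehicle 1 it was -0.21.

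Plod1 and Plod3 had the narrowest intervals. Plod1 (ENSRNOG00000007763), the hydroxylase of lysines in the triple helix, was at 197, 189, 175 and 214 CPM across BAPN 1 to 4 and 213, 179, 165 and 241 CPM across Vehicle 1 to 4. Its log2 fold change was -0.04 (SE 0.15, FDR 0.855), with a 95% interval of -0.36 to 0.29. Plod3 (ENSRNOG00000001417), whose product also adds sugars to hydroxylysine, was at 106, 97.2, 95.8 and 94.5 CPM with BAPN and at 102, 87.7, 89.4 and 108 CPM with vehicle. All 8 animals lay close together. The log2 fold change of Plod3 was 0.03 (SE 0.11, FDR 0.879), with a 95% interval of -0.21 to 0.27, and its sign turned with total counts only (-0.03) and without BAPN 1, Vehicle 2 or Vehicle 3 (lowest value -0.02). That of Plod1 turned without BAPN 3 (0.0045) or Vehicle 4 (0.06).

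Plod2 (ENSRNOG00000030183) encodes the hydroxylase of telopeptide lysines, which directs collagen toward the hydroxylysine type of crosslink found in fibrotic tissue. It had the highest fold change of the 8 genes and the largest SE. BAPN 1 to 4 were at 271, 412, 213 and 149 CPM, and Vehicle 1 to 4 at 152, 88.5, 72.1 and 317 CPM. Vehicle 4 was above 3 of the BAPN animals, and BAPN 4, the male of that group, was just below Vehicle 1. The means were 261 ± 112 CPM in the BAPN group, against 157 ± 112 CPM. The log2 fold change was 0.73 (SE 0.49, FDR 0.29), with a 95% interval of -0.23 to 1.97, and the exact two-sided permutation p was 0.2. Without Vehicle 4 the fold change was 1.33 (FDR 0.0562) and without BAPN 2 it was 0.41 (FDR 0.569). Among females alone it was 1.31 (FDR 0.106). Of all tested genes, 95.1% had a fold change at or below that of Plod2.

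**Figure D2:**
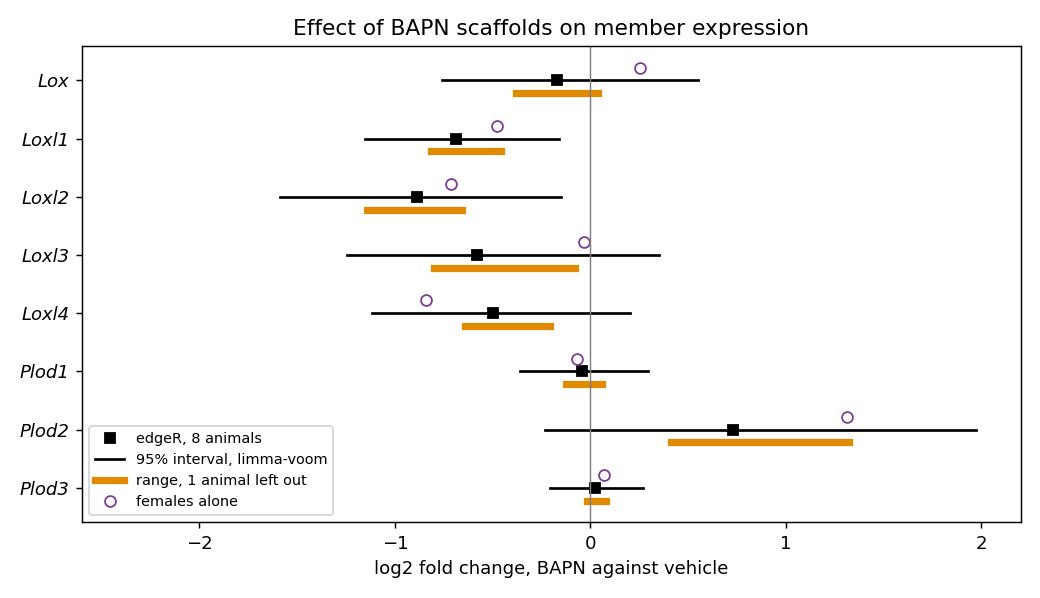
Log2 fold change (horizontal axis) of BAPN against vehicle for each gene. Squares are edgeR estimates from 8 animals, black lines the 95% intervals of limma-voom, orange bars the range when 1 animal was left out, and open circles the estimate among females alone. The intervals of Loxl1 (-1.15 to -0.16) and Loxl2 (-1.59 to -0.15) lie below 0, and Plod2 ranges from 0.41 to 1.33 with 1 animal left out.

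The values of the 8 genes depended on a few animals. Vehicle 4, a male, was the highest vehicle animal for 7 of the 8 genes and the highest of all 8 animals for 6 of them. BAPN 2, a female, was the highest BAPN animal for 5 genes. Vehicle 2, a female, was the lowest vehicle animal for 5 genes. After subtraction of group means, the log2 CPM of the 28 pairs of members had Pearson correlations between 0.165 (Lox with Loxl4) and 0.962 (Loxl3 with Plod2) over 8 animals. These values are a description, since they rest on 8 animals and changed when some of them were left out. For Loxl3 with Plod2 the value was 0.854 when Vehicle 4 and BAPN 2, the animals farthest from the median of Loxl3, were left out. For Lox with Loxl1 it was 0.784, and 0.374 without Vehicle 2 and Vehicle 4.

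The summed level of the 5 oxidases was 1040 ± 182 CPM with BAPN and 1494 ± 501 CPM with vehicle, and the groups overlapped. That of the 3 hydroxylases was 553 ± 109 and 453 ± 153 CPM, also with overlap. Shares of a family's reads were compared between animals only, since the genes differ in length. Lox took 41.5, 42.2, 47.1 and 36.3% of oxidase reads across BAPN 1 to 4 and 32.9, 27.2, 37.5 and 31.9% across Vehicle 1 to 4. BAPN 4 and Vehicle 3, both males, were the animals that made the groups overlap. Loxl2 took 13.5 ± 2.33% with BAPN and 17.6 ± 2.61% with vehicle. Plod2 took 45.7 ± 10.9% of hydroxylase reads with BAPN and 31.8 ± 11.4% with vehicle. The groups overlapped in the shares of both Loxl2 and Plod2. There were 1.37, 2.19, 1.22 and 0.697 Plod2 reads per Plod1 read across BAPN 1 to 4 and 0.715, 0.494, 0.438 and 1.32 across Vehicle 1 to 4. Vehicle 4 was again the exception in its group, with a ratio in the range of the BAPN females. Sums and shares were not tested, because the genes were chosen with earlier results known.

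**Figure D3:**
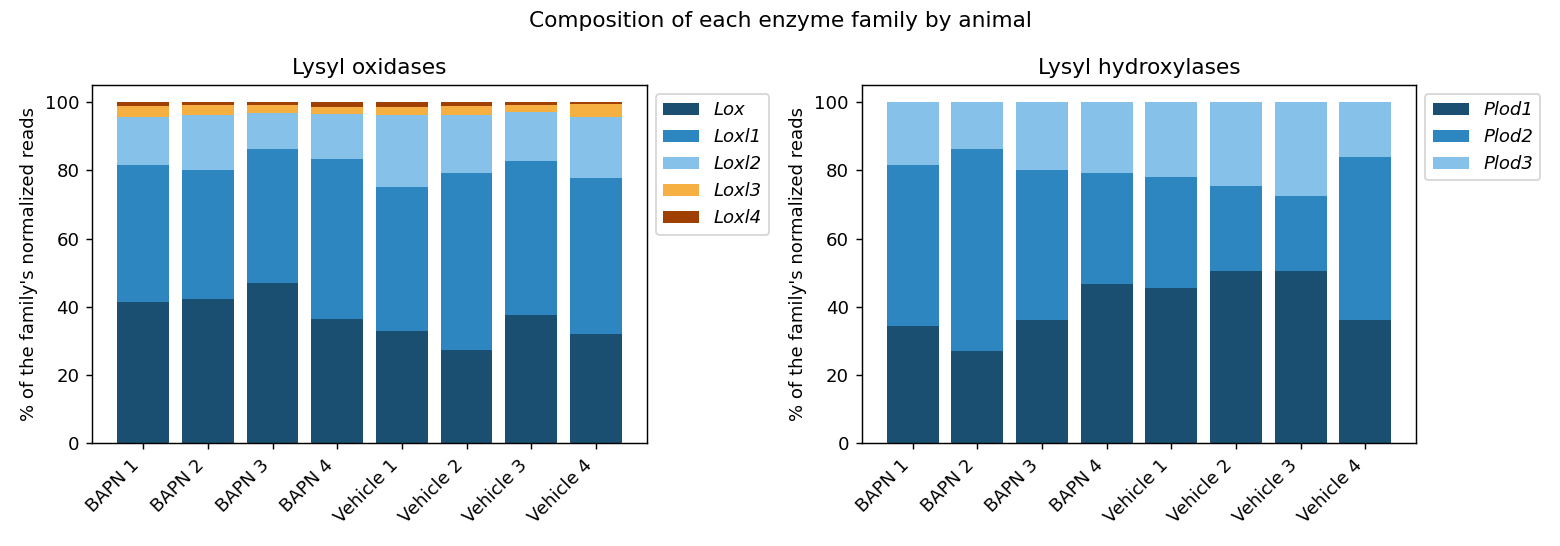
Share of the normalized reads of each family (vertical axis, %) taken by each gene in each animal. Lox makes up 36.3 to 47.1% of oxidase reads with BAPN and 27.2 to 37.5% with vehicle, and Plod2 22.1 to 59.1% of hydroxylase reads over all animals.

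The substrates of these enzymes were compared next, from a list of fibrillar collagens and elastin. Of 9 substrate genes tested, 0 were called by edgeR, against 16.8% of all tested genes, and 8 had fold changes below 0 (median -0.78), against 48.4%. DESeq2 called 2, Col1a1 and Col3a1, both lower, against 27.4% of all tested genes called in either direction and 15.1% called lower. The edgeR count was 2 without Vehicle 2 and 1 without BAPN 2, where 19% and 10.5% of all tested genes were called in either direction. The shares called lower there were 11% and 6.43%. Among the most abundant, Col1a1 had a log2 fold change of -1.002 (FDR 0.118), Col3a1 one of -0.84 (FDR 0.119) and Eln, the elastin gene, one of -0.99 (FDR 0.26). Of these 3 genes Eln had the largest SE (0.56), and it ranged from 873 to 5012 CPM with BAPN, where BAPN 2 stood far above the other 3, and from 1905 to 5405 CPM with vehicle.

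Relative to Col1a1 in the same library, there were 26.7, 34.9, 40.7 and 29.1 Lox reads per 1000 Col1a1 reads across BAPN 1 to 4 and 26.4, 22.1, 17.8 and 14.1 across Vehicle 1 to 4. The groups did not overlap, but BAPN 1 and Vehicle 1 were almost level. The ratio of the group means was 1.63, and the median tested gene had one of 1.61, so that Lox did not stand out from other genes in this measure. For Plod2 there were 17.3, 26.2, 20.8 and 12.3 reads per 1000 Col1a1 reads with BAPN and 7.83, 7.56, 2.60 and 6.50 with vehicle. Every BAPN animal was above every vehicle animal, and Vehicle 4 no longer stood apart. The ratio of the means for Plod2 was 3.13, at or above that of 98.2% of tested genes. Of all other tested genes, 8.12% were higher per Col1a1 read without overlap. Plod1 (ratio of means 1.599), Plod3 (1.66), Loxl1 (1.09), Loxl2 (0.928), Loxl3 (1.26) and Loxl4 (1.11) overlapped between the groups. There were 0.336 ± 0.159 Lox reads per Eln read with BAPN and 0.127 ± 0.0285 with vehicle, with overlap through BAPN 2 at 0.110. The ratio of means was 2.63 for Lox and 1.81 for Loxl1, both under the 2.85 of the median tested gene. These ratios were chosen after the counts had been seen and were not tested.

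**Figure D4:**
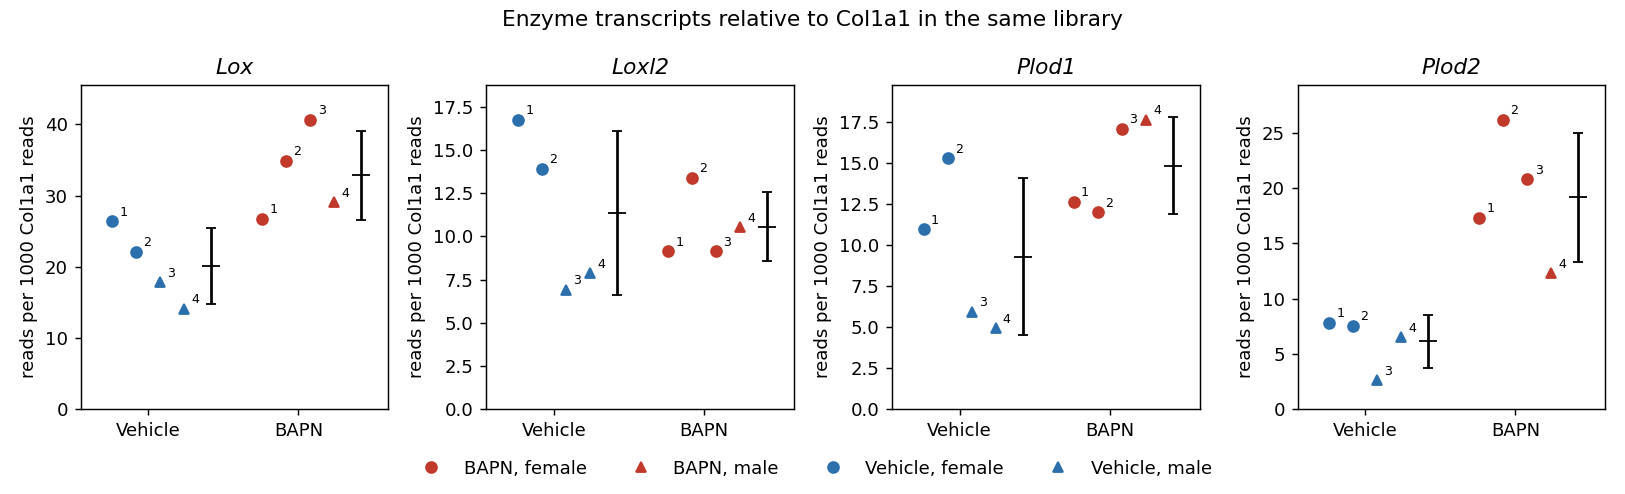
Reads of Lox, Loxl2, Plod1 and Plod2 per 1000 Col1a1 reads in the same library (vertical axes from 0), by animal. Circles are females, triangles males, and bars mean ± SD (n = 4). Plod2 lies at 12.3 to 26.2 with BAPN and 2.60 to 7.83 with vehicle, and Loxl2 overlaps.

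Genes whose products activate the oxidases or dock them on the matrix were read next. Of 13 tested, 12 had fold changes below 0 (median -0.55), against 48.4% of all tested genes (median 0.02). By edgeR 1 of the 13 was called lower, no more than the 9.25% of all tested genes called lower. It was Adamts2, which removes the amino propeptide of procollagen and also cleaves pro-LOX. Adamts2 fell: its mean was 211 ± 38.6 CPM in BAPN veins and 448 ± 112 CPM in the others, for a log2 fold change of -1.08 (SE 0.22, FDR 0.0169). It was at 248, 239, 168 and 190 CPM across BAPN 1 to 4 and at 483, 289, 470 and 550 CPM across Vehicle 1 to 4, without overlap. Of all tested genes, 11.9% were lower without overlap. Bmp1, the main protease that releases active LOX, had a log2 fold change of -0.55 (FDR 0.116), and its relative Tll1 one of -1.10 (FDR 0.0547). Neither passed the threshold. The most abundant members were fibronectin (Fn1, -0.06, FDR 0.905), periostin (Postn, -0.01, FDR 0.986) and fibrillin 1 (Fbn1, -0.70, FDR 0.173). DESeq2 called 2 of the 13 lower, Adamts2 and Tll1, about the share of all tested genes it called lower (15.1%). The edgeR count was 2 without Vehicle 2 and without Vehicle 3, where 19% and 10.4% of all tested genes were called in either direction. The shares called lower there were 11% and 5.94%. Adamts2 was not called by edgeR without Vehicle 1, among females alone or with the replicate block. Bmp1 was named because of its role, after its value was seen, as was Tll1.

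Copper must be loaded into the oxidases in the secretory pathway. Of 9 copper handling genes tested, 2 were called by edgeR, both higher, against 7.5% of all tested genes called higher. They were the metallothioneins Mt1 and Mt2A, which bind copper and zinc. DESeq2 called 3 higher, against 12.3% of all tested genes, the third being Cox17, whose product carries copper to cytochrome c oxidase in mitochondria. Mt1 rose from 6.30 ± 1.52 to 21.7 ± 11.2 CPM (log2 fold change 1.78, SE 0.58, FDR 0.0197). It was at 35.9, 18.5, 23.5 and 8.91 CPM across BAPN 1 to 4 and at 5.13, 6.10, 8.51 and 5.47 CPM across Vehicle 1 to 4. BAPN 4, the male, came close to Vehicle 3. Mt2A had a log2 fold change of 1.73 (FDR 0.0342) with overlap. Neither was called with sex as a covariate, with the replicate block, without BAPN 3 or without Vehicle 1, and only 1 copper gene was called without BAPN 1, BAPN 2 or Vehicle 3 or among females alone. Cox17 was at 39.5 to 68.8 CPM with BAPN and 15.6 to 37.7 CPM with vehicle, without overlap (log2 fold change 0.82, FDR 0.0748 in edgeR and 0.0318 in DESeq2). Of all tested genes, 12.7% were higher without overlap. Atp7a, the pump that delivers copper to the secretory pathway, had a fold change of -0.40 (FDR 0.105). It was named after its value was seen, as was Cox17. The most abundant copper genes were Cp, which encodes ceruloplasmin (-0.21, FDR 0.537), Atox1 (0.30, FDR 0.395) and Slc31a2 (0.59, FDR 0.0912). Of 3 other amine oxidase genes tested, Aoc3 (-0.61, FDR 0.0728), Maoa (-0.25, FDR 0.168) and Maob (-0.92, FDR 0.0802), 0 were called by edgeR and 2 (Aoc3 and Maob) by DESeq2, against 16.8% and 27.4% of all tested genes. Aoc3 and Maob were lower in DESeq2, which called 15.1% of all tested genes lower. The edgeR count was 1 without BAPN 2, against 10.5%.

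Partners of the lysyl hydroxylases in the endoplasmic reticulum were spread around 0. Of 11 tested, 0 were called by edgeR and 1 (Hspa5) by DESeq2 (median log2 fold change 0.01), against 16.8% and 27.4% of all tested genes. The listed gene that missed the filter, Colgalt2, which encodes a collagen galactosyltransferase, was at 1.29 to 2.24 CPM with BAPN and 4.13 to 4.76 CPM with vehicle, without overlap. Of the genes that met the filter, 11.9% were lower without overlap. Colgalt2 was called lower by edgeR with filterByExpr (-1.34, FDR 0.019) and with no filter (-1.32, FDR 0.0256), where 6.94% and 4.03% of all genes in those fits were called lower. The most abundant were the collagen chaperone gene Serpinh1 (-0.48, FDR 0.246), Pdia3 (0.24, FDR 0.345) and Hspa5 (0.54, FDR 0.0779). Of the 7 genes of prolyl hydroxylation, which depends on the same cofactors, 0 were called by edgeR and 1 (P4hb) by DESeq2 (median 0.05), again against 16.8% and 27.4% of all tested genes. Hspa5 and P4hb were higher in DESeq2, which called 12.3% of all tested genes higher. In edgeR P4hb had a log2 fold change of 0.27 (FDR 0.178) and P4ha1 one of 0.57 (FDR 0.0963). Crtap, read here under an older name that stands for more than 1 listed gene, had one of 0.20 (FDR 0.477) in the more abundant of these.

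Lox, Plod1 and Plod2 are known targets of hypoxia-inducible factors, and a list of other such targets was read beside them. Of 17 tested, 15 had fold changes above 0 (median 0.56) and 3 were called, all higher, against 7.5% of all tested genes called higher. Pgk1 rose from 289 ± 106 to 579 ± 133 CPM (log2 fold change 1.00, FDR 0.0419), Ldha from 472 ± 144 to 830 ± 152 CPM (0.81, FDR 0.0488) and Bnip3 from 51.1 ± 17.6 to 122 ± 57.2 CPM (1.25, FDR 0.0435). Pgk1 and Ldha encode glycolytic enzymes and Bnip3 a mitochondrial protein that promotes mitophagy. The count was 6 in DESeq2, which called 12.3% of all tested genes higher, and 2 with equal library totals, against 7.33%. It was 0 with sex as a covariate, with the replicate block, among females alone or with total counts only. The same count of 0 was found without any 1 of BAPN 2, BAPN 3, BAPN 4, Vehicle 1, Vehicle 3 or Vehicle 4, and 1 without BAPN 1. Among the most abundant, Aldoa (0.39, FDR 0.314), Eno1 (0.75, FDR 0.088) and Ndrg1 (0.45, FDR 0.458) were not called. Vehicle 4 was the lowest of all 8 animals for Pgk1 (162 CPM), Ldha (296 CPM) and Bnip3 (29.7 CPM), whereas for Plod2 it was the highest vehicle animal (317 CPM).

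Among 10 collagen receptors and myofibroblast genes, 8 had fold changes below 0 (median -0.42). By edgeR 1 was called lower, a share close to the 9.25% of all tested genes called lower, and DESeq2 called 2 lower, against 15.1%. These were Ddr2 and Itga1, an integrin gene whose log2 fold change in edgeR was -1.26 (FDR 0.105, against 0.0324 by DESeq2). Ddr2, the fibrillar collagen receptor kinase, fell from 78.4 ± 27.8 to 26.6 ± 11.8 CPM (log2 fold change -1.56, SE 0.38, FDR 0.0261). It was at 37.9, 34.0, 11.8 and 22.9 CPM across BAPN 1 to 4 and at 88.0, 46.9, 66.9 and 112 CPM across Vehicle 1 to 4, without overlap. Of all tested genes, 11.9% were lower without overlap. Ddr2 was not called without BAPN 4, Vehicle 1 or Vehicle 4, with sex as a covariate, among females alone or with the replicate block. The most abundant of this list were Itgb1 (0.16, FDR 0.521), Acta2 (-0.75, FDR 0.26) and Ccn2 (-0.11, FDR 0.883). The summed level of the 10 smooth muscle markers was 2089 to 5275 CPM with BAPN and 4081 to 7422 CPM with vehicle. That of the fibroblast markers was 13839 to 21736 and 17509 to 47527 CPM. Most of it was Col3a1, which is also on the substrate list, and the other 9 summed to 3966 to 5408 CPM with BAPN and 4210 to 8154 CPM with vehicle. Of all 10 fibroblast markers, 9 had fold changes below 0. By edgeR 1 was called lower, Clec3b (-0.88, FDR 0.0127), and DESeq2 called 5 lower, Pdgfra, Dpt, Pdgfrb, Col3a1 and Clec3b, against 15.1% of all tested genes. That of the endothelial markers was 521 to 699 and 878 to 1624 CPM, without overlap. B and plasma cell markers summed to 117 to 285 CPM with BAPN and 37.8 to 92.7 CPM with vehicle, and macrophage markers to 3700 to 4683 and 2579 to 3924 CPM. Fewer cells of a type and less RNA per cell cannot be told apart in these bulk libraries, and the part of cell type composition in the oxidase values was not tested.

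**Figure D5:**
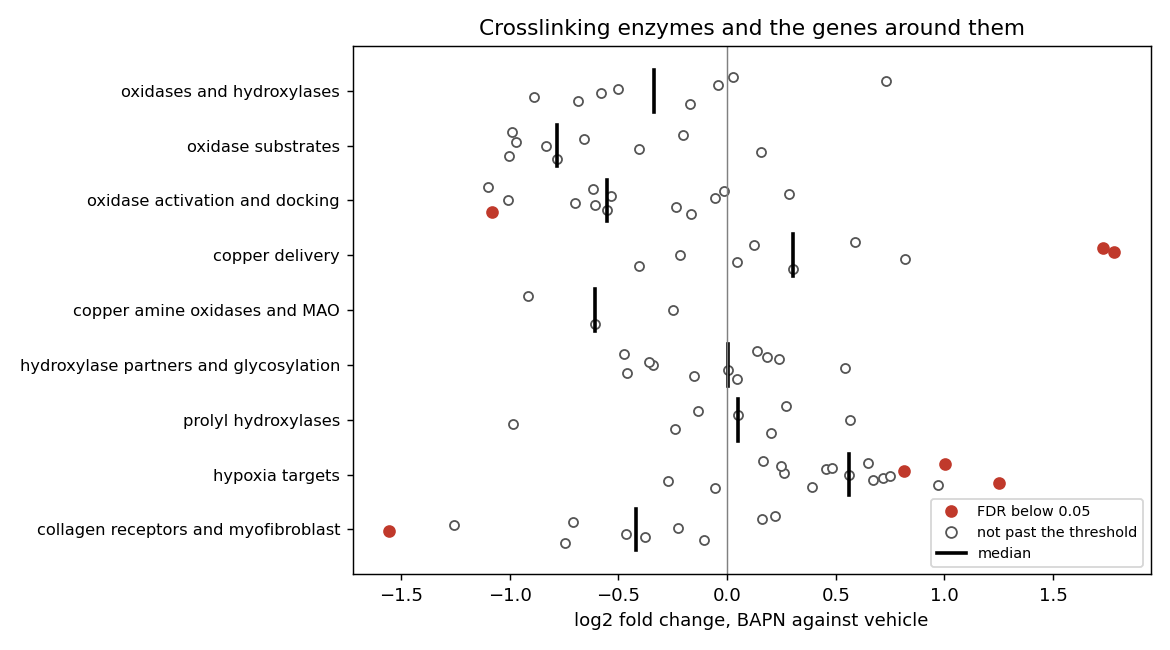
Log2 fold change of BAPN against vehicle (horizontal axis) for each tested gene of the enzyme family and of 8 lists of related genes. Filled points have an FDR below 0.05 and vertical bars are medians. No oxidase or hydroxylase is filled, and 3 hypoxia targets and 2 copper genes are filled on the right.

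For each gene of the family, the 3 genes with a symbol that followed it most closely across animals were found by the Pearson correlation of log2 CPM after subtraction of group means (8 animals, description only). Lox was closest to Rhbdf1 (0.987), Hoxc10 (0.984) and Phc1 (0.982), and Loxl1 to Cyth3 (0.994), Septin2 (0.989) and Zfp449 (0.987). Loxl2 was closest to Col8a1 (0.997), which encodes a network collagen of vessels, the matrix protease gene Adamts12 (0.993) and Hmcn1 (0.987), which encodes the matrix protein hemicentin 1. Loxl3 was closest to Rftn2 (0.995), Ptgfrn (0.992) and Sgcd (0.991). For Loxl4 they were Rsbn1l (0.977), Usp45 (0.969) and Gab2 (0.963). Plod1 was closest to Serpinb6a (0.981), Vegfc (0.967) and Tpr (0.965). Plod2 was closest to the asparagine synthetase gene Asns (0.988), Cemip2 (0.980) and Poglut1 (0.977), and Plod3 to Hyal1 (0.986), Sft2d2 (0.981) and Tspan11 (0.978). Of these 24 genes, 4 were also found with Spearman's rank correlation and 12 with total counts only.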

How the data were processed

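Total RNA from outflow veins of 8 rats was depleted of ribosomal RNA, made into stranded libraries and sequenced. The authors deposited whole-number counts of reads per rat Ensembl gene, 1 file per animal, without normalization. Per the labels, bcl2fastq 2.17, Trim Galore and STAR were used. The counting tool, its strand setting and the genome build are not given in the sources used here, so genes sharing reads with near-identical or overlapping genes are uncertain. Groups, replicate numbers and sex came from the sample labels. Genes with a base mean (mean of counts divided by DESeq2 size factors) of at least 100 entered the tests, after the filter of the paper's methods. edgeR 4.0.16 (TMM, treatment as the only term, R 4.3.3) gave calls, limma 3.58.1 (voom) standard errors and intervals, and DESeq2 1.42.0, the tool of the paper's methods, an alternative. A prior count of 2 was added before taking log2 CPM, and permutation tests were exact over the 70 arrangements of the animals. No pair of libraries of a group agreed within counting noise (chi-square per degree of freedom 68.6 to 321). Nothing says more of the replicates than that they are separate rats. The steps were tested on simulated counts. Members and gene lists were chosen with earlier results of these data known. The genes named are all members, the called and the 3 most abundant genes of each list, and the 3 genes most like each member. Others, such as genes called only by DESeq2 or under another filter, were named after their values were seen. Of the lists, oxidase substrates, activation and docking, copper handling, amine oxidases, hydroxylase partners, prolyl hydroxylases, hypoxia targets and collagen receptors with myofibroblast genes were used, beside cell type markers. The alternatives were DESeq2, other scaling, other filters, sex as a covariate, the replicate block, females alone, equal library totals and each animal left out. Promoters came from RefSeq, which covered 6 of 8 members.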

Additional observations from a re-analysis of the deposited data

How the results depend on the processing

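Of the 8 members, 2 were called by DESeq2, 1 with total counts only, and between 0 and 2 with each animal left out (2 without Vehicle 2, which were Loxl1 and Loxl2). The other alternatives called 0. The number of all genes called, 1957, was 3202 in DESeq2, 930 with sex as a covariate, 556 with the replicate block and 89 among females alone, and ranged from 397 (without Vehicle 1) to 2215 (without Vehicle 2) with each animal left out. Leaving out a BAPN animal gave 1224 genes for BAPN 2, 745 for BAPN 3 and 906 for BAPN 4, and leaving out a vehicle animal 1210 for Vehicle 3 and 963 for Vehicle 4. The cause was not tested. The fold changes of Loxl1, Loxl2, Loxl3, Loxl4 and Plod2 kept their sign under all 18 alternatives. The sign of Lox turned among females alone (0.25) and without Vehicle 4 (0.040), with a range of -0.38 to 0.040 when 1 animal was left out. That of Plod3 turned with total counts only (-0.025) and, over a range of -0.019 to 0.080, when 1 animal was left out, and that of Plod1 over a range of -0.12 to 0.062. The labels do not say whether the replicate numbers pair the animals, and the correlations given next cannot settle it. Same-numbered libraries had correlations of deviations of 0.0944, -0.265, 0.269 and -0.14, and 3 of 8 libraries correlated best with their own number. With the replicate block 0 of 8 members were called. Depth was lower by more than 2 times in the vehicle group, and with equal library totals 1925 genes and 0 members were called.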
